A study of Mus musculus with 24 samples.

Results

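The hard hair and nail keratins described here are 10 genes, Krt31, Krt33a, Krt33b, Krt34, Krt35, Krt36, Krt81, Krt83, Krt84 and Krt86, out of 15055 genes in the deposited table. They were chosen by name, as the rows of the table that encode these keratins, and all 10 were measured in all 24 libraries. Other hard keratins are named further on where a result turns on them. RNA came from hind limb digit tips of C57BL/6 mice aged 10 to 12 weeks, with bone, cartilage, marrow, dermis and epidermis in one sample. A distal or a proximal amputation had been made, and the tips were collected 12, 14 or 21 days post amputation, which gives 6 groups of 4 libraries. All 6 groups were amputated, so there is no uninjured group to compare with, and whether each library is a separate animal is not stated in the labels. Adult mouse digit tips are known to regenerate when cut distally, through the last phalanx under the nail, but not when cut more proximally.

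Hard keratins are the filament proteins of nail plate and hair shaft. An acidic type I chain pairs with a basic type II chain, the pairs assemble into filaments, and keratin-associated proteins then cross-link these filaments through disulfide bonds as the cell hardens and dies. Cells of the nail matrix and of the hair matrix and cortex make them, under transcription factors such as Hoxc13 and Foxn1 and with input from Wnt signalling, and the flat epidermis of the skin makes soft keratins instead. Of the 10 genes, Krt31, Krt33a, Krt33b, Krt34, Krt35 and Krt36 encode type I chains and Krt81, Krt83, Krt84 and Krt86 encode type II chains. Krt35 is known as an early keratin of the hair matrix, Krt31, Krt33a, Krt33b and Krt34 as keratins of the hair cortex, and Krt81, Krt83 and Krt86 as their type II partners, mutated in the human hair disorder monilethrix. Krt36 and Krt84 are known also from the filiform papillae of the tongue.

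In the GENCODE M21 annotation of GRCm38 (mm10), the 6 type I genes lie on chromosome 11 between 100011195 and 100105626, a stretch of 94.4 kb, all on the minus strand. The 4 type II genes lie on chromosome 15 between 101459061 and 101532820, a stretch of 73.8 kb, with Krt86 on the plus strand and the other 3 on the minus strand. Krt36 (100102007 to 100105626) and Krt84 (101525026 to 101532820), which behave apart from the other members in the results that follow, are each the last of the members on their stretch by coordinate. RefSeq promoter sequence (GRCm38.p6) was at hand for 5 of the 10 genes. The 250 bases before each start are printed because these 5 genes divide into 3 that moved together (Krt31, Krt33b and Krt34) and the pair that stood apart. Capitals mark matches to the TATA box letters TATAAA and to the core letters CTTTGA of the sites bound by LEF1 and TCF factors, searched on both strands.
Krt31, 11:100050552-100050801, minus strand: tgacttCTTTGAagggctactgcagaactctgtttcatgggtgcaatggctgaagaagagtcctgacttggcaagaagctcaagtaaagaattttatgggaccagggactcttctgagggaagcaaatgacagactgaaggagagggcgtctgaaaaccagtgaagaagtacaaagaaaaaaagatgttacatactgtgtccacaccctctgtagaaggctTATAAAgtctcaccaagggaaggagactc
Krt33b, 11:100029869-100030118, minus strand: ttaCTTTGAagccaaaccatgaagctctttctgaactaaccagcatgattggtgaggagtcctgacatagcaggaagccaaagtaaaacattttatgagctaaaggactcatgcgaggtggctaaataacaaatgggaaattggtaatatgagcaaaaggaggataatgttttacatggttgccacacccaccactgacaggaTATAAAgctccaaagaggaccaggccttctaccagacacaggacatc
Krt34, 11:100041555-100041804, minus strand: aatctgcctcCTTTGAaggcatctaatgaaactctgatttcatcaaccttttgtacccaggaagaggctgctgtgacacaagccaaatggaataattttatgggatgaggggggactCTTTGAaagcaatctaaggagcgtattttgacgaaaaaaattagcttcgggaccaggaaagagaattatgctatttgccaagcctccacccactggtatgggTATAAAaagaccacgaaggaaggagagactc
Krt36, 11:100105627-100105876, minus strand: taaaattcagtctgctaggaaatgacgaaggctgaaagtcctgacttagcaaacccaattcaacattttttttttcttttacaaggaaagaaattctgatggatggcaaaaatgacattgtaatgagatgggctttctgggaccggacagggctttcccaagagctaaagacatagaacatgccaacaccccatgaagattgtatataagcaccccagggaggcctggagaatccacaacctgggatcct
Krt84, 15:101532821-101533070, minus strand: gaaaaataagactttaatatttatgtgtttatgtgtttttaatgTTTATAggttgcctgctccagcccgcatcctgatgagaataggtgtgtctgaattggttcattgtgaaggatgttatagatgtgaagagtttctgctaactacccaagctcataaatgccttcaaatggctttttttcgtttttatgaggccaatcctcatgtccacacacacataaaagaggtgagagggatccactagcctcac

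TATAAA ended 24 bases before the start in Krt31, 26 bases before it in Krt34 and 42 bases before it in Krt33b. CTTTGA began 244 bases before the start in Krt31, 247 in Krt33b and, in Krt34, 240 and again 133 bases before it. Krt36 had no exact match to either in this window. Krt84 had a match to TATAAA on the opposite strand (TTTATA), 206 to 201 bases before its start. Only the exact letters were searched. Close to the start, the Krt36 window holds TATAAG and the Krt84 window CATAAA, which differ from TATAAA in the last and the first letter. Whether either gene lacks a TATA box was therefore not tested. Over 32851 RefSeq promoters, TATAAA was found on either strand in 12.4% and CTTTGA in 13.8% of windows of this length. On the strand of the gene and close to the start, TATAAA was found in 2.73%. Krt31, Krt33b and Krt34 are close relatives that lie near each other, so their matches are not independent observations. The letters CAATAAA, bound by posterior HOX proteins, were in none of the 5 windows and in 4.20% of all promoters. A match is a description of the letters and was not tested as a site, and no match says nothing about a factor.

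The genes resemble each other, which bears on how far their reads can be told apart. Of the 50-base windows of its longest coding transcript, Krt86 shared 40.5% with some other member, Krt81 39.3%, Krt34 33.1%, Krt31 28.1%, Krt33b 24.2%, Krt33a 21.9% and Krt83 21.0%. Krt35 shared 3.95%, Krt36 0.432% and Krt84 0%. Krt81, Krt83 and Krt86 also shared 14.7%, 11.9% and 13.5% of their windows with Krt87, a type II hair keratin outside the set. Values of the close relatives are therefore uncertain to the extent that reads were split between them. For Krt35, Krt36 and Krt84 little or no such sharing with the other members was found. Windows were compared only among the members and with the hair keratins Krt32, Krt39, Krt82 and Krt87. Sharing with any other gene or locus was not tested. For Krt35 the compared transcript has 1722 bases, against a deposited gene length of 2396.

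The values are whole numbers that look normalised per library by the authors and rounded, so sequencing depth is unknown and no counting error is given. Table totals ran from 15264829 to 19351055 over the 24 libraries. In these genes 3 libraries were set apart: proximal 12 day replicate 1, proximal 14 day replicate 1 and distal 21 day replicate 4. They were picked after the values were seen, not by a set rule, and each is named beside the results it touches. The outlier check given further on flagged values in the proximal libraries of these, but none in distal 21 day replicate 4. It also flagged distal 12 day replicate 1 and proximal 21 day replicate 2. Markers of epidermis (Krt5, Krt14, Krt10 and others, 9 of 9 listed), fibroblasts (5 of 5) and bone (5 of 5) were present in every library. Of 5 melanocyte markers only Pmel had a row, at 32 to 64, and the keratins of the hair inner root sheath were not analysed here. In whole tissue, fewer hard keratin cells and less keratin RNA per cell cannot be told apart.

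Together the 10 genes made up 2.08% ± 0.38 of the table total (SD, n = 4) in distal 12 day tips, 2.66% ± 0.56 at 14 days and 3.47% ± 1.37 at 21 days. After proximal amputation they made up 0.54% ± 0.31 at 12 days, 2.94% ± 1.34 at 14 days and 1.47% ± 0.56 at 21 days. At 12 days every distal library (1.56% to 2.46%) lay above every proximal library (0.25% to 0.83%), at 14 days the groups overlapped, and at 21 days they did not (2.43% to 5.43% against 0.74% to 1.96%). The highest shares belonged to distal 21 day replicate 4 (5.43%) and proximal 14 day replicate 1 (4.69%).

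**Figure D1:**
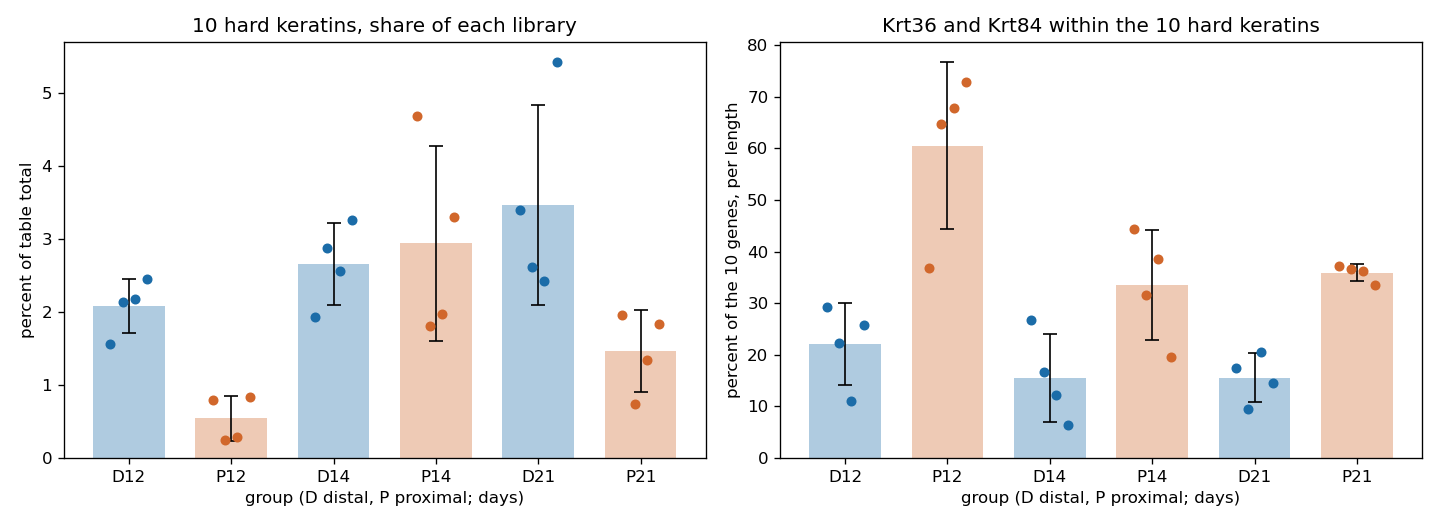
Left, the summed value of the 10 hard keratins as a percentage of each library's table total; right, Krt36 plus Krt84 as a percentage of the 10 genes after division by gene length, for the distal (D, blue) and proximal (P, orange) groups at 12, 14 and 21 days. Bars are means of 4 libraries, error bars SD and points single libraries: the proximal 12 day group is lowest on the left (0.54%) and highest on the right (60.5%).

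At 12 days, 8 of the 10 genes were higher after distal than after proximal amputation: Krt31, Krt33a, Krt33b, Krt34, Krt35, Krt81, Krt83 and Krt86. In each of these 8 the 4 distal libraries lay above the 4 proximal ones. Across all genes 9.25% were called higher at this time, and 10.4% were higher without overlap between the groups. The median log2 difference of the 10 genes was 3.34, against -0.03 over all genes tested. Krt36 and Krt84 did not pass the test, and their groups overlapped. Calls are Benjamini-Hochberg adjusted p-values under 0.05 from limma over all 15055 genes, and differences are on the log2(value + 1) scale with moderated standard errors.

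Among the cortical type I keratins, Krt31 stood at 22674, 35404, 35765 and 35592 in the distal 12 day libraries and at 9406, 2289, 1966 and 3911 in the proximal ones. The lowest distal library was thus above the highest proximal one, and the difference was 8.86-fold (log2 3.15 ± 0.41 SE, adjusted p = 1.5e-05). Krt33a, a close relative of Krt33b that is made at a far lower level, stood at 1821, 8153, 8477 and 3612 against 905, 167, 78 and 78. Its difference was the largest of the 10 genes at 26.3-fold (log2 4.72 ± 0.71, adjusted p = 6.9e-05) and ranked 8 by size among all genes. Proximal replicate 1 (905) lay far above the other 3 proximal libraries of Krt33a. Krt33b, the most abundant member per length in distal tips, was 9.79-fold higher, at 63814 ± 15900 against 8498 ± 7332 (SD, n = 4). Krt34 was 10.1-fold higher, with distal values from 27582 to 44870 and proximal values from 1569 to 11733.

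Krt35, the early matrix keratin, stood at 1483, 6317, 6808 and 4081 in distal libraries and at 945, 203, 310 and 52 in proximal ones. It was 16.9-fold higher (log2 4.08 ± 0.71, adjusted p = 0.00031), with distal replicate 1 low and proximal replicate 1 high in their groups. The type II partner Krt81 stood at 36159, 46498, 60601 and 60869 against 15119, 2454, 2596 and 6132, a 10.1-fold difference (log2 3.34 ± 0.49, adjusted p = 5.9e-05). Krt83 was 10.2-fold higher, with distal values from 19943 to 43528 and proximal values from 1491 to 8722. Krt86 was 12.8-fold higher, with distal values from 20701 to 40813 and proximal values from 1092 to 8595. In all 8 genes the highest proximal library was replicate 1. Without the 3 libraries that stood apart, all 8 were called higher, with log2 differences from 3.61 (Krt31) to 5.51 (Krt33a). Of the 3, only proximal 12 day replicate 1 enters this comparison. As it was the highest proximal library, leaving it out could only widen the differences, so this is no check on them.

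Krt36 and Krt84 did not share this difference at 12 days. Krt36 stood at 41101, 44173, 24565 and 60577 in distal libraries and at 22866, 11886, 13917 and 41398 in proximal ones, so that proximal replicate 4 lay among the distal values. The log2 difference was 1.03 (95% interval 0.12 to 1.93, adjusted p = 0.10 from limma), and it passed the test only when proximal replicate 4 was left out (1.38, adjusted p = 0.036). Krt84 stood at 42355, 48385, 18487 and 57541 against 29390, 15745, 18260 and 67441, with the highest value of all in a proximal library. Its log2 difference was 0.48 (95% interval -0.66 to 1.62, adjusted p = 0.57). The lower bounds of the 95% intervals of the other 8 genes ran from 2.22 to 3.25, above the upper bounds of both of these genes.

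**Figure D2:**
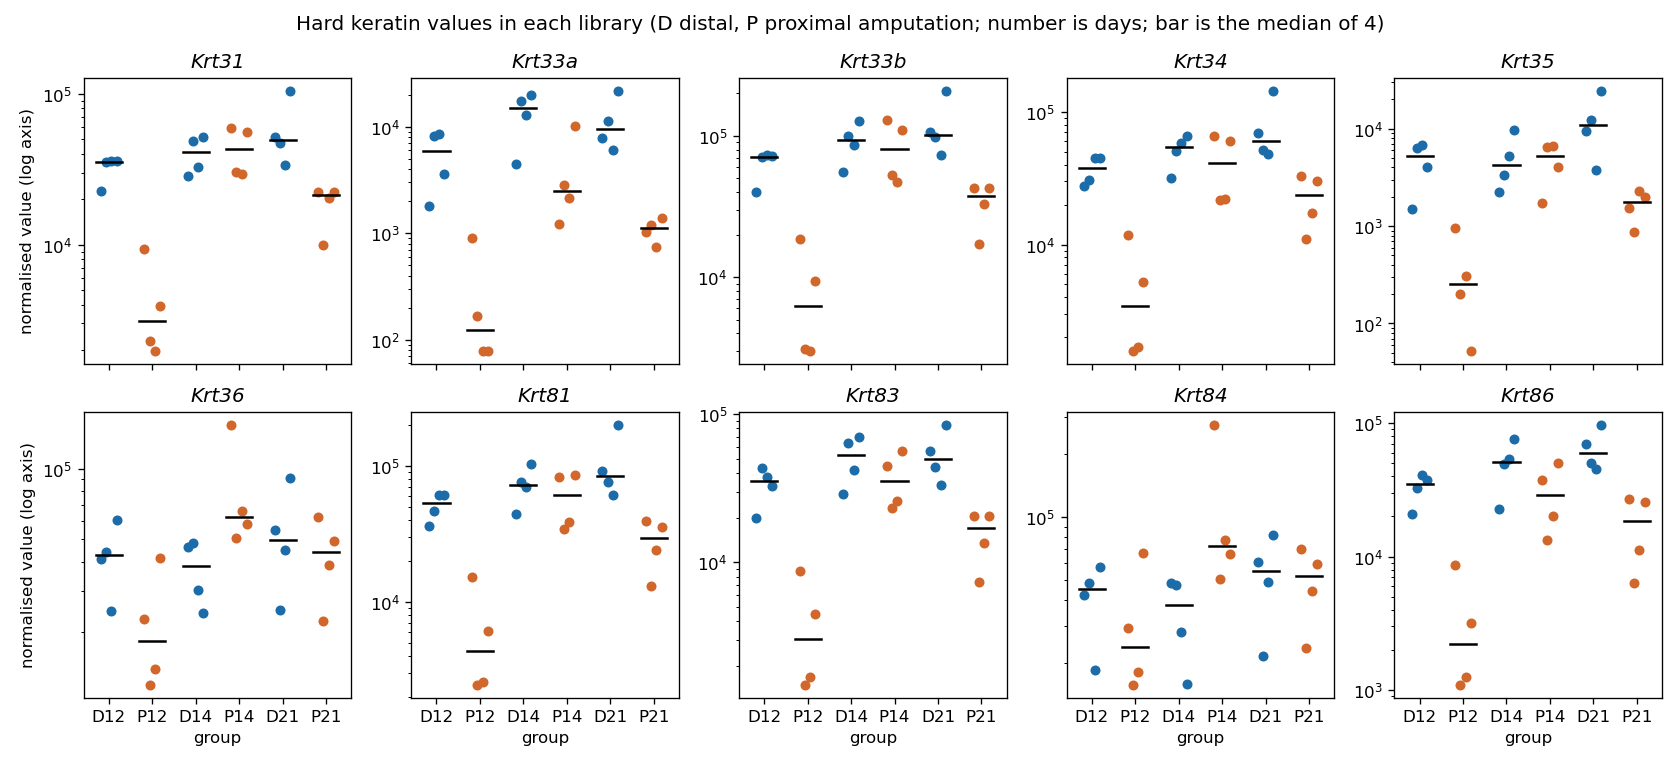
Normalised values of each hard keratin on a log axis, one point per library and a bar at the median of 4, for distal (D, blue) and proximal (P, orange) amputation at 12, 14 and 21 days. In 8 panels the proximal 12 day points lie below all distal 12 day points, and in the Krt36 and Krt84 panels the groups overlap at 12 days while proximal 14 day replicate 1 is the highest point (153321 and 274410).

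At 14 days none of the 10 genes passed the test, and 3 had an unadjusted p under 0.05. Across all genes 5.39% were called in either direction, and the median log2 difference of the 10 was 0.27. Krt31 stood at 28688, 48984, 32828 and 52067 after distal amputation and at 59280, 30250, 29341 and 55416 after proximal amputation, which is overlap over almost the whole range. Its log2 difference was -0.07 (95% interval -0.92 to 0.78, adjusted p = 0.95), so a difference of the size seen at 12 days lies outside the interval. The intervals of Krt33b (-0.82 to 1.21), Krt34 (-0.69 to 1.54), Krt35 (-1.37 to 1.55), Krt81 (-0.68 to 1.36) and Krt83 (-0.53 to 1.44) also spanned 0 and ended below their 12 day differences.

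The 3 genes that stood farthest from 0 at 14 days were Krt33a, Krt36 and Krt84. Krt33a stood at 4502, 17333, 12859 and 19791 against 1224, 2858, 2161 and 10116, a 4.01-fold difference (log2 95% interval 0.54 to 3.47, adjusted p = 0.098), which was called only without proximal replicate 4 (2.60, adjusted p = 0.032). Krt36 stood at 46103, 48108, 30309 and 24188 against 153321, 50561, 66137 and 58083, and Krt84 at 48364, 47406, 28254 and 15931 against 274410, 50516, 77989 and 66882. In both genes every proximal library lay above every distal one, as in 5% of all genes, though the gap between the groups was small. Their log2 differences were -1.05 (adjusted p = 0.17) and -1.53 (adjusted p = 0.10) by limma, and -0.70 and -1.01 without the libraries that stood apart.

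At 21 days, the same 8 genes as at 12 days were higher after distal amputation and none was lower, against 8.22% of all genes called higher. The median log2 difference of the 10 was 1.83, and all 8 were without overlap between the groups, as in 8.58% of all genes in this direction. Krt31 stood at 51524, 47099, 33842 and 103771 in distal libraries and at 22306, 9866, 20280 and 22251 in proximal ones, a 3.04-fold difference (log2 1.61 ± 0.41, adjusted p = 0.010). Krt33a was again the farthest apart, at 7777, 11274, 6003 and 21533 against 1031, 1205, 739 and 1382 (9.71-fold, log2 3.28 ± 0.71, adjusted p = 0.0033). Krt35 followed at 9365, 12266, 3765 and 24172 against 1547, 872, 2302 and 1979 (6.42-fold, log2 2.68 ± 0.71, adjusted p = 0.012). Distal replicate 4 was the highest library of all 3 genes.

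The remaining calls at 21 days were between 3.38-fold (Krt34) and 4.19-fold (Krt86), with Krt33b at 3.53-fold, Krt83 at 3.57-fold and Krt81 at 3.70-fold. These rested partly on single libraries. Without proximal replicate 2, which had the lowest value of its group in 7 of the 8 genes, 5 genes were called and Krt33b (adjusted p = 0.053), Krt34 (0.093) and Krt86 (0.061) were not. Krt34 also missed the threshold without distal replicate 1, distal replicate 4 or proximal replicate 3. Without the 3 libraries that stood apart, all 8 were called, with log2 differences from 1.29 (Krt31) to 2.93 (Krt33a). Krt36 (0.27, 95% interval -0.64 to 1.17) and Krt84 (0.07, -1.07 to 1.21) again did not pass, with adjusted p = 0.72 and 0.95 by limma, and Krt84 stood at 61275, 21686, 49033 and 82352 against 70718, 23604, 44522 and 59896. The sign of both was unstable: it turned negative for both without distal replicate 4 (-0.04 and -0.19), and for Krt84 after division by table totals (-0.08).

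**Figure D3:**
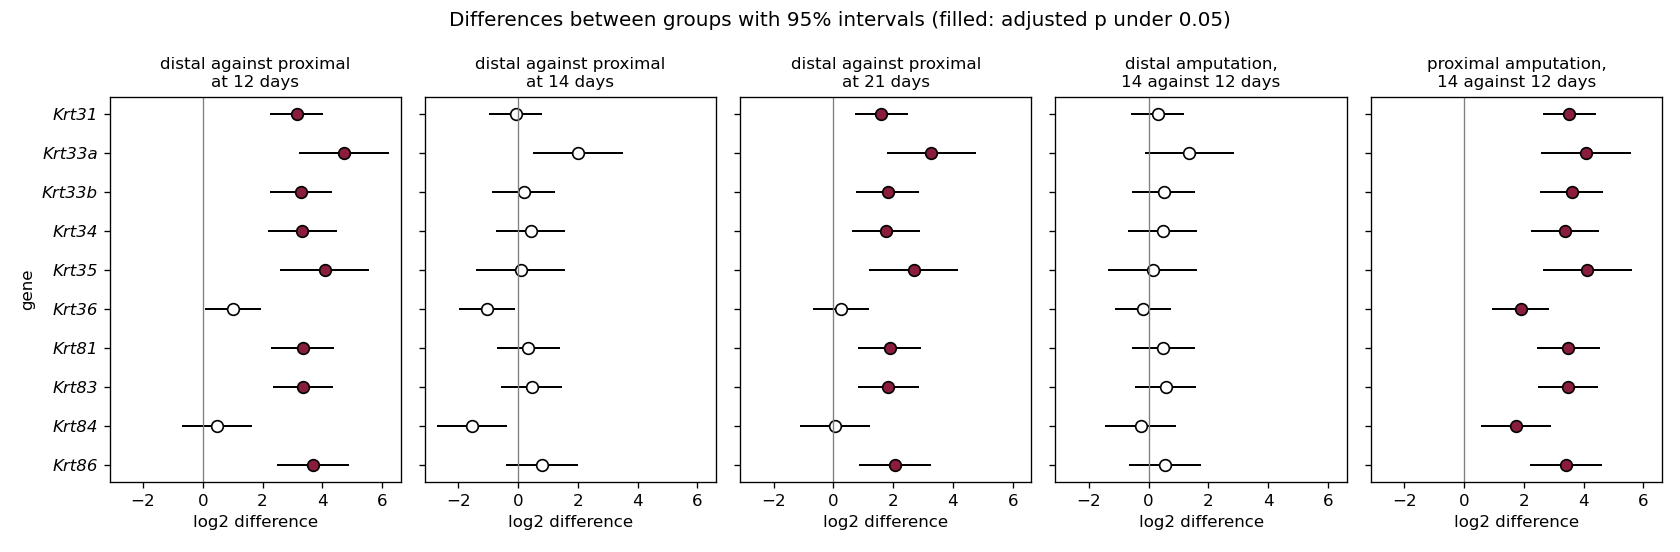
Log2 differences of the 10 hard keratins with 95% intervals, for distal against proximal amputation at 12, 14 and 21 days and for 14 against 12 days within each amputation level; filled circles have an adjusted p under 0.05. Filled circles fill the proximal 14 against 12 day panel (10 genes), 8 rows at 12 and at 21 days, and none of the other panels.

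Over time the 2 amputation levels differed. After distal amputation no hard keratin was called between any 2 days, and none had an unadjusted p under 0.05 in limma, while 19.4% of all genes were called between 12 and 14 days, 34.8% between 14 and 21 days and 23.8% between 12 and 21 days. The median log2 changes of the 10 genes were 0.48, 0.45 and 0.90 for these 3 intervals. The 95% intervals were wide: for Krt31, 14 against 12 days, -0.54 to 1.16, and for Krt35, 21 against 12 days, -0.13 to 2.80. For Krt33b, Krt34 and Krt86 every 21 day library lay above every 12 day library, with log2 changes of 0.86, 0.97 and 0.97. Across all genes 9.01% were higher without overlap in that comparison.

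After proximal amputation all 10 genes rose between 12 and 14 days, against 7.35% of all genes called higher, and the median log2 change was 3.49. Krt31 rose 11.5-fold (log2 3.53 ± 0.41, adjusted p = 1.6e-05), Krt33b 12.2-fold, Krt34 10.4-fold, Krt81 11.2-fold, Krt83 11.2-fold and Krt86 10.7-fold. The 2 low-level genes rose most, Krt33a 16.9-fold and Krt35 17.5-fold (log2 4.07 ± 0.71 and 4.13 ± 0.71), and they ranked 4 and 2 by size among all genes. Krt36 rose 3.71-fold (log2 1.89 ± 0.44, adjusted p = 0.0051). These 9 genes had no overlap between 12 and 14 days, as in 8.4% of all genes in this direction. Krt84 rose 3.36-fold (log2 1.75 ± 0.55, adjusted p = 0.035) with overlap, since proximal 12 day replicate 4 (67441) lay above 2 of the 14 day libraries. The Krt84 call ended without any one of 5 libraries (proximal 12 day replicates 1, 2 and 3 and proximal 14 day replicates 1 and 3), with adjusted p from 0.055 to 0.13, whereas the other 9 calls held with each library left out.

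Between 14 and 21 days after proximal amputation, all 10 differences were negative (median -1.16) and 2 of the 10 genes were called lower. That count is close to the share of all genes called lower (16.3%), so it does not set the hard keratins apart. On the log2 scale the fall was -1.22 for Krt31 and -1.30 for Krt83 (adjusted p = 0.030 and 0.045 by limma). Krt33b lay at -1.28 (adjusted p = 0.053). Leaving out single libraries gave 0 to 3 calls, with 0 without proximal 14 day replicate 1 or 4 or proximal 21 day replicate 2, so this fall is less firmly measured than the preceding rise. From 12 to 21 days, 8 genes were higher at 21 days (12% of all genes), by 4.55-fold (Krt83) to 6.63-fold (Krt35), and Krt36 (1.02, adjusted p = 0.083) and Krt84 (0.74, adjusted p = 0.33) did not pass. Of the 8, only Krt31 was free of overlap (11.5% of all genes), since proximal 12 day replicate 1 reached into the 21 day range of the other 7.

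Whether the 12 to 14 day change depended on the amputation level was tested directly as an interaction. It was negative for all 10 genes, with a median of -2.91, and 8 were called, against 5.08% of all genes called lower. The values were -3.22 ± 0.58 for Krt31 (adjusted p = 0.0013), -3.99 ± 1.00 for Krt35 (adjusted p = 0.012) and -3.00 ± 0.70 for Krt81 (adjusted p = 0.0073). Krt36 was among the called genes at -2.08 ± 0.62 (adjusted p = 0.032), a call that ended without any one of 8 single libraries. The Krt86 call ended without proximal 12 day replicate 2 (-2.48, adjusted p = 0.0502). Krt33a (-2.71, adjusted p = 0.082) and Krt84 (-2.02, adjusted p = 0.098) were not called, and each passed with 1 library left out (Krt33a without proximal 12 day replicate 1, adjusted p = 0.012, and Krt84 without replicate 4 of that group, adjusted p = 0.044). The level difference in the change from 14 to 21 days was positive for all 10 genes (median 1.47) and called for 0, with 5 at an unadjusted p under 0.05 and 1.9% of all genes called. For 12 to 21 days the median was -1.46 with 0 calls, 5 at an unadjusted p under 0.05 and 7.42% of all genes called lower, and 7 genes were called lower without the 3 libraries that stood apart. The comparisons at 12, 14 and 21 days and those over time reuse the same groups and are not independent of each other.

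Levels can be compared roughly between genes after division by gene length. Shared sequence limits this, since its extent differs between genes (Krt86 40.5% and Krt81 39.3% of windows, Krt36 0.432% and Krt84 0%). How reads shared by relatives were counted is not known here, so the ranks of Krt36 and Krt84 against the others are uncertain to that extent. In distal tips Krt33b ranked first at all 3 times, at 40363 ± 10057 per kb at 12 days, and Krt81 second, at 27481 ± 6448 per kb. Their ranges overlapped, although Krt33b exceeded Krt81 in 4 of 4 libraries. Krt33a and Krt35 ranked last in all 6 groups, at 2674 ± 1608 and 1950 ± 1016 per kb in distal 12 day tips. In proximal 12 day tips the order was different: Krt36 (13475 ± 8056 per kb) and Krt84 (12727 ± 9300) stood first and second, ahead of Krt33b (5375 ± 4638), again with overlapping ranges. Proximal 21 day tips also had Krt36 first (25854 ± 10114 per kb), ahead of Krt33b (21355 ± 7646) in 4 of 4 libraries.

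This change in makeup can be read as the length-scaled share of Krt36 and Krt84 among the 10 genes. It was 29.3%, 22.3%, 11.0% and 25.8% in the distal 12 day libraries and 36.8%, 64.6%, 67.9% and 72.8% in the proximal ones, with replicate 1 the lowest of the latter. At 14 days it was 15.5% ± 8.57 against 33.5% ± 10.7 with overlap, and at 21 days 15.6% ± 4.77 against 35.9% ± 1.61 without overlap (9.42% to 20.6% against 33.6% to 37.3%). The 4 proximal 21 day libraries were thus closely alike in this share, although their summed values of the 10 genes ran from 112754 to 320606. The ratio of Krt84 to Krt81 per kb was 1.23 to 1.33 in these 4 libraries and 0.21 to 0.58 in the distal 21 day ones. Summed over all members, type I exceeded type II per kb in every library, by 1.09 to 1.74 times, with group means between 1.26 and 1.48. The ratio of type I to type II members thus stayed within this range while the summed value of the 10 genes ran from 40002 to 1050170. It leaves out hair keratins outside the set, such as the type II Krt87 (72759 ± 20125 in distal 12 day libraries). It is therefore not the balance of all type I and type II chains in the tissue.

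Across the 24 libraries the genes fell into 3 sets by their correlation, which is given as a description since libraries share groups and scaling. Krt31, Krt33b, Krt34, Krt81, Krt83 and Krt86 correlated with each other at r = 0.967 to 0.995 (Pearson, log2 values), type I with type II alike, and at 0.90 to 0.98 after the group means were removed. Some of these genes share sequence, but no type I gene shared a 50-base window with a type II gene. Krt33a and Krt35 followed these 6 genes over all libraries at 0.83 to 0.92 and less closely within groups, at 0.27 to 0.64. Krt36 and Krt84, which lie on different chromosomes and shared no window, correlated at 0.95 over all libraries and 0.98 within groups. Krt84 followed the 6 genes at 0.34 to 0.43, and Krt33a and Krt35 at 0.04 and 0.10, turning to -0.30 and -0.40 within groups. Krt36 followed the 6 genes more closely, at 0.59 to 0.67, and Krt33a and Krt35 at 0.32 and 0.38. The latter turned to -0.20 and -0.27 within groups. Within groups Krt36 and Krt84 followed the 6 genes at 0.45 to 0.57 and 0.36 to 0.47. These ranges lie inside that of Krt33a and Krt35, so distance from the 6 genes within groups did not separate them from the pair.

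**Figure D4:**
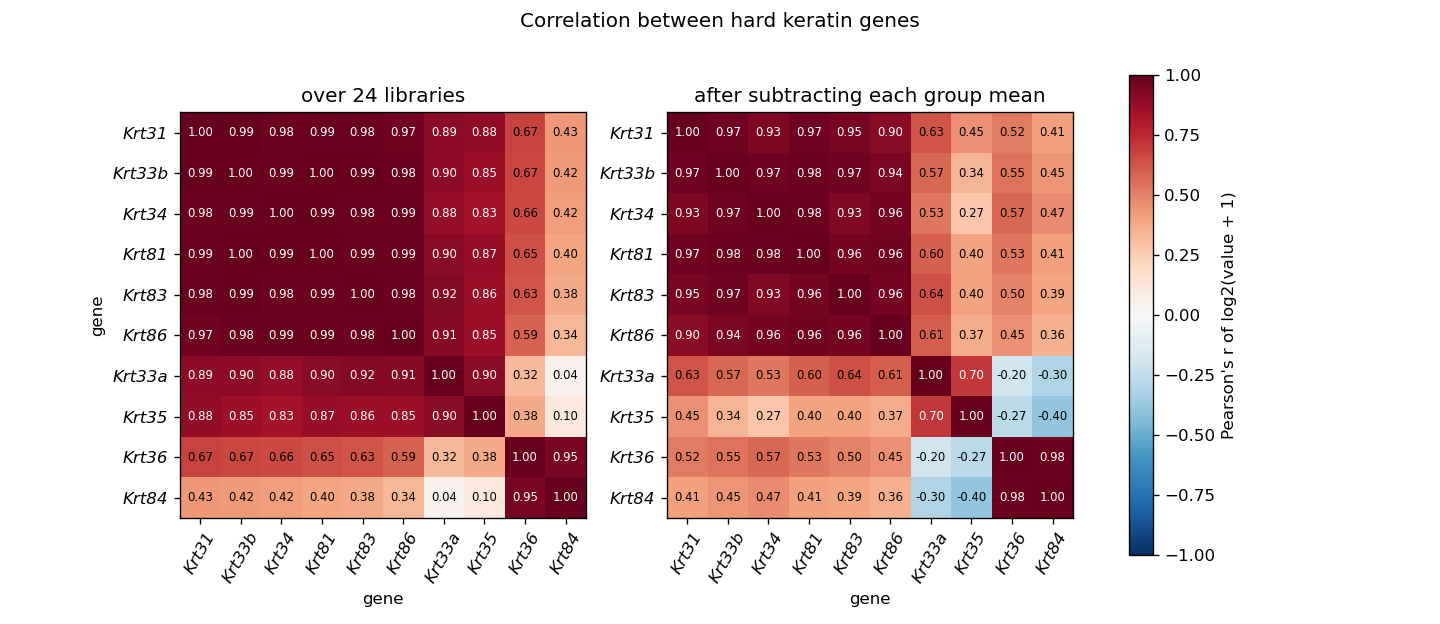
Pearson correlation of log2(value + 1) between hard keratin genes over 24 libraries (left) and after subtraction of each group mean (right), from -1 (blue) to 1 (red). A block of 6 genes lies at 0.97 and above on the left, Krt33a and Krt35 lie next to it, and Krt36 and Krt84 form a pair at 0.95 (left) and 0.98 (right).

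Outside the set, the genes whose pattern lay closest to the mean of the 10 members were searched for among 12486 genes with a mean value of at least 50. Krt87, the type II hair keratin, came first (r = 0.992), followed by Osbp2 (0.976), Krtap1-5 (0.975), Vsig8 (0.974), Tmprss11c (0.973), Krtap9-3 (0.972), Krtap13-1 (0.972), Gp5 (0.967), Krtap11-1 (0.966) and Krt82 (0.965). In all, 50 genes exceeded 0.9, and 20 of these were keratin-associated protein genes. For Krt36 and for Krt84 the closest gene outside the set was the same, 2310079G19Rik (r = 0.909 and 0.813), whereas for Krt33a it was Gprc5d (0.960), a receptor of hard keratinizing cells, and for Krt35 it was Dsg4 (0.975), a desmosomal cadherin of the hair shaft.

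The keratin-associated proteins, the cross-linkers of hard keratin filaments, moved at the same times. Of 38 genes, 36 were higher after distal amputation at 12 days and 0 lower (median 3.21), 0 were called at 14 days, and 18 were higher and 1 lower at 21 days (median 1.56). The lower one, named after its values were seen, was Krtap28-10 (log2 -1.75, adjusted p = 0.047 by limma, lost without any one of the 8 libraries, adjusted p up to 0.11). Krtap9-1 was 42.9-fold higher at 12 days, at 1865 ± 845 against 57.0 ± 55.3. After proximal amputation 37 of the 38 rose between 12 and 14 days, against 7.35% of all genes called higher. Between levels, 9.25% of all genes were called higher at 12 days and 8.22% at 21 days. The other 4 measured hair keratins were all higher at 12 days, among them Krt87 (72759 ± 20125 against 10672 ± 8407, 8.44-fold) and Krt82, a hair cuticle keratin (1616 ± 311 against 243 ± 149, 7.32-fold). At 14 days 0 of the 4 were called, at 21 days 2 were higher (Krt32 and Krt87, neither of which held without the 3 libraries that stood apart), and 4 rose in proximal tips from 12 to 14 days.

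Among 11 transcription factor and signalling genes of nail and hair matrix, 6 were higher and 1 lower at 12 days. Of all 15055 genes, 1392 were called higher and 1661 lower between levels at 12 days. These numbers were 461 and 350 at 14 days and 1237 and 1419 at 21 days. Hoxc13 stood at 1503 ± 385 against 514 ± 156 (log2 1.56 ± 0.22), Msx2 at 739 ± 190 against 180 ± 56.5 (log2 2.05 ± 0.27), the Wnt pathway factor Lef1 at 206 ± 128 against 39.3 ± 21.0 (log2 2.24 ± 0.44) and Foxn1 at 1411 ± 188 against 629 ± 240 (log2 1.24 ± 0.26). At 14 days 1 was higher (Msx2, log2 0.95, lost without any one library other than distal replicate 1 and proximal replicate 4, adjusted p up to 0.13), and at 21 days 7 were higher and 0 lower, with Msx2 at log2 2.34 and Lef1 at 2.13. The gene lower at 12 days was Wls (log2 -0.37 ± 0.08), which carries Wnt proteins to the cell surface, named after its values were seen. At 21 days Wls went the other way and was among the 7 higher genes (log2 0.48, adjusted p = 0.00028 by limma). Of 8 measured proteins that serve hard keratin cells, 4 were higher and 1 lower at 12 days: Gprc5d by 33.9-fold, Dsg4 by 9.96-fold, the calcium-binding S100a3 of the hair cuticle by 6.29-fold and the desmosomal Dsc2 by 2.61-fold. The lower gene, named after its values were seen, was Padi1, an enzyme that citrullinates proteins of cornifying cells (log2 -1.35 ± 0.42, adjusted p = 0.024 by limma, lost without distal replicate 1 or proximal replicate 4, adjusted p up to 0.097). At 14 days 0 of the 8 were called. At 21 days 3 were higher, Gprc5d by 5.37-fold, S100a3 by 4.28-fold and Dsg4 by 3.95-fold, and 1 was lower. The lower gene was Tchh, trichohyalin, a structural protein of the inner root sheath and medulla of hair, at 96.8 ± 21.9 in distal and 556 ± 633 in proximal libraries (log2 -1.91 ± 0.45, adjusted p = 0.0060 by limma, and 0.065 when only the 2 groups were fitted).

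Soft keratins and markers of other tissues were measured in the same libraries. For comparison, 1392 of all 15055 genes were called higher and 1661 lower between levels at 12 days. These numbers were 461 and 350 at 14 days and 1237 and 1419 at 21 days. Of 6 nail bed and wound keratins, 3 were higher at 12 days, led by Krt42 (77360 ± 20108 against 5956 ± 4226, 14.8-fold), with Krt6a 2.36-fold and Krt75 1.98-fold higher. At 14 days Krt42 was the 1 called (3.01-fold higher), and at 21 days Krt42 was 7.24-fold higher and Krt17, a keratin of activated epidermis, 2.14-fold lower. Single libraries decided several of these calls: Krt75 was lost without distal replicate 3 or 4 or proximal replicate 1, 2 or 4 (adjusted p up to 0.10), Krt42 at 14 days without any one library other than distal replicate 1 and proximal replicate 4 (up to 0.081), and Krt17 without distal replicate 1, 2 or 3 or proximal replicate 2 or 3 (up to 0.17). In proximal tips 4 of the 6 rose between 12 and 14 days and 0 fell (median log2 change 1.05), against 7.35% of all genes called higher. Of 9 epidermal genes 0 were higher and 1 lower at 12 days, which is close to the share of all genes called lower. The lower gene was Ivl (log2 -1.19, lost without distal replicate 1 or 4 or proximal replicate 3 or 4, adjusted p up to 0.081 by limma). The summed value of the 9 genes was 620201 to 736739 in distal and 814779 to 1050602 in proximal 12 day libraries. At 14 days 1 was lower, Krt2 of the upper epidermis (log2 -1.56), a call lost without distal replicate 1, 2 or 3 or proximal replicate 1 or 3 (adjusted p up to 0.11). At 21 days 2 were lower. The basal keratin Krt5 stood at 25280 ± 5584 against 42564 ± 5293, 1.71-fold lower (adjusted p = 0.022 by limma), which was lost without distal replicate 1 or proximal replicate 3 (adjusted p up to 0.089). Ivl, involucrin of the cornified envelope, was 2.31-fold lower, lost without distal replicate 1 or 3 or proximal replicate 1, 3 or 4 (adjusted p up to 0.10). As a description, the 10 hard keratins summed and divided by the basal keratins Krt5 and Krt14 stood at 1.39 to 2.93 in distal and 0.28 to 1.04 in proximal 12 day libraries. At 21 days that ratio was 2.78 to 7.46 against 0.72 to 2.14, with Krt5 in its denominator itself lower in the distal group.

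Some fibroblast genes differed between the levels, in a direction that was not the same at each time. At 12 days 2 of 5 were lower after distal amputation (Col3a1, log2 -1.29, and Pdgfra, -0.44, lost without distal replicate 1 or 4 or proximal replicate 3 or 4, adjusted p up to 0.091), with summed values of 206611 to 336787 in distal and 413247 to 542225 in proximal libraries. Of all 15055 genes, 1661 were called lower at that time. At 14 days 1 of the 5 fibroblast genes was higher (Lum, log2 1.00, adjusted p = 0.0096 by limma) and 0 were lower, with 461 of all genes called higher. At 21 days their sums overlapped, at 147585 to 193658 against 115959 to 176913. At that time 1 of 5 was higher (Lum), with 1237 of all genes called higher. Of 5 bone genes 0 were called between levels at any of the 3 times, with 12 day sums of 3983 to 17056 against 2430 to 13984. The part of tissue composition in the keratin differences was not tested.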

How the data were processed

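Ribosomal RNA-depleted total RNA of 24 digit tip samples (6 groups of 4) was sequenced. The submitters' processing notes name STAR 2.5.4b, featureCounts 1.6.3 and cutadapt, and build mm10. Strandedness of counting was not given in the sources used here. The deposited table holds whole numbers for 15055 genes, treated here as a score, not as counts: upper quartiles were 902.5 to 930.5 and median-ratio factors 0.962 to 1.04, and over 9650 genes the least-spread direction across libraries was 6.72 times below Poisson sampling, so a factor per library seems to have been removed, a step no label or header records. Depth is unknown, and errors may be understated. The deposited gene lengths gave levels per kb.

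From these, limma 3.58.1 (R 4.3.3) was fitted to log2(value + 1) by lmFit and eBayes with a trend (6 group means, 18 residual and 3.91 prior degrees of freedom, no filter, 12 comparisons), with Benjamini-Hochberg adjustment over all genes and a threshold of 0.05. P-values rest on the spread between libraries alone, which may be partly technical. The script was tested on simulated data. The members and gene lists were chosen with earlier results of these data known. All members are named, with up to 4 called genes per list by largest difference, up to 3 Krtap genes and the 10 genes nearest to the members' mean; genes nearest to single members, and Padi1, Wls and Krtap28-10, were named after their values were seen. Alternatives were pseudocounts of 0.5 and 8, median-ratio factors, table totals, a minimum mean of 50, sample weights, only the compared groups, a replicate block, each library left out and, chosen after seeing the data, 3 libraries left out together.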

Additional observations from a re-analysis of the deposited data

Results flagged for a closer look

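Of the 60 sets of 4 values (10 genes in 6 groups), 6 held a library whose gap to the nearest other, as a share of the range, exceeded Dixon's 95% critical value, where chance gives about 1 in 20 (5%). Krt31 was low in distal 12 day replicate 1 (22674, others 35404 to 35765) and in proximal 21 day replicate 2 (9866, others 20280 to 22306). Krt33b was low in distal 12 day replicate 1 (40031, others 70269 to 73203). Krt33a was high in proximal 12 day replicate 1 (905, others 78 to 167). In proximal 14 day replicate 1, Krt36 (153321, others 50561 to 66137) and Krt84 (274410, others 50516 to 77989) were high together, while Krt33a (1224) and Krt35 (1720) were the lowest of their group there.

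For 8 genes the change from 12 to 14 days differed between distal and proximal amputation by an interaction test in limma. The log2 differences were -3.22 for Krt31, -3.10 for Krt33b, -2.91 for Krt34, -3.99 for Krt35, -2.08 for Krt36, -3.00 for Krt81, -2.90 for Krt83 and -2.88 for Krt86. Each means a change that was less upward after distal than after proximal amputation. For Krt36 the distal change itself was slightly negative (log2 -0.18, not called).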

How the results depend on the processing

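Pseudocounts, median-ratio factors, the minimum mean and sample weights changed no count of called hard keratins by more than 1.5 times. The replicate block gave 4 genes lower between 14 and 21 days after proximal amputation in place of 2. It also added Krt36 to the genes higher at 21 than at 12 days there (adjusted p = 0.043 by limma). No other count of called hard keratins moved by over 1.5 times with it. Distal and proximal libraries of the same day and number correlated at -0.27 to 0.21 in their deviations. This does not settle whether the numbers pair libraries, since a factor per library seems to have been removed. With only the groups compared, 4 genes were again lower between 14 and 21 days after proximal amputation. In that setting 1 gene was higher at 21 than at 12 days after distal amputation (0 otherwise). For the level difference from 12 to 21 days (0 called), table totals gave 1 and leaving out the 3 libraries together gave 7.

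With single libraries left out, the counts ranged from 0 to 6 for that level difference (6 without proximal 12 day replicate 1), 0 to 3 for the proximal fall from 14 to 21 days, 0 to 1 between levels at 14 days and 5 to 8 at 21 days, against 8 to 9 at 12 days and 9 to 10 for the proximal rise. Signs turned only in differences that were not called. Table totals turned Krt84 at 21 days to -0.076. Without the 3 libraries, Krt31 (0.10) and Krt35 (-0.33) turned at 14 days, Krt36 (-0.039) and Krt84 (-0.19) at 21 days, and, after distal amputation, Krt83 from 14 to 21 days (-0.15) and Krt36 from 12 to 21 days (-0.044). With single libraries left out, the ranges that crossed 0 between levels were -0.23 to 0.10 (Krt31), -0.041 to 0.44 (Krt33b) and -0.33 to 0.42 (Krt35) at 14 days, and -0.039 to 0.59 (Krt36) and -0.25 to 0.45 (Krt84) at 21 days. After distal amputation they were -0.34 to 0.47 (Krt35), -0.42 to 0.010 (Krt36) and -0.62 to 0.064 (Krt84) from 12 to 14 days, -0.67 to 0.058 (Krt33a) and -0.16 to 0.29 (Krt83) from 14 to 21 days, and -0.044 to 0.58 (Krt36) and -0.027 to 0.71 (Krt84) from 12 to 21 days. The cause was not tested.

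Table totals moved the median of all genes at 21 days from -0.05 to -0.19 and the calls there from 1237 higher and 1419 lower to 627 and 3559; at 12 days they moved from 1392 and 1661 to 845 and 1697. The 8 hard keratins called at each time, and the shares of all genes beside them, come from the fit to the values as deposited, without that shift. Unknown depth and near-identical relatives limit the precision of single members.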
